A study of Mus musculus with 9 samples.

Results

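Neural stem cells (NSCs) treated with BMP4 alone and collected at day 6 were compared with NSCs kept proliferating in bFGF and EGF and collected at day 0. All genes with a mean of at least 0.1 FPKM (fragments scaled by gene length and by the size of the library) over the 9 deposited columns were tested, which left 20207 of 55704 listed genes. Each group held 3 libraries of bulk RNA-seq, so 6 libraries were compared, and 3 further libraries of NSCs given bFGF together with BMP4 until day 6 entered the fit. The cells were taken from the subventricular zone of C57BL/6 mice aged 8–9 weeks, pooled from 2 females and 2 males, and grown attached to poly-L-ornithine and laminin. Every group first spent 16–18 h in proliferation medium with 20 ng/mL each of bFGF and EGF, and the bFGF/EGF-treated NSCs were collected at that point. BMP4-treated NSCs were then switched to medium with BMP4 at 20 ng/mL. The labels describe the B27 supplement as lacking vitamin A for the proliferation medium but not for the BMP4 medium. Loss of both mitogens, addition of BMP4, the time in culture and the change of medium therefore cannot be told apart in this comparison. The labels do not say whether the 3 libraries of a group came from separate isolations, so the p-values measure the spread between these libraries, which may be technical.

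BMP4 is a ligand of the TGF-beta family. It binds type I and type II serine/threonine kinase receptors, which phosphorylate SMAD1, SMAD5 and SMAD9 and so switch on target genes such as the ID factors and the inhibitory SMADs. EGF and bFGF act through receptor tyrosine kinases and the RAS/ERK cascade, and hold adult NSCs in the cell cycle. In the adult brain BMP signalling is known for keeping NSCs out of the cycle and for favouring the astrocyte over the neuronal lineage.

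The libraries held 15912635 to 17441380 fragments on genes, so depth differed little between groups. On log2 values, libraries of the same group correlated at 0.958–0.964 across genes for bFGF/EGF and 0.950–0.957 for BMP4, and libraries of different groups at 0.810–0.827; genes are not independent replicates. The check of the labelled cell type gave a mixed picture. Of the 7 stem and progenitor markers Pax6 rose, and Nes and Egfr fell. With Vim and Fabp7 as the largest parts, the 7 summed to 1662–1788.5 FPKM in bFGF/EGF-treated and 1367–1812 FPKM in BMP4-treated NSCs. The 7 astrocyte markers, of which 6 rose and 1 fell, summed to 172–233 and 3680–4409 FPKM. Defining markers of cells that the cultures should not hold were near 0: the 6 microglial markers summed to at most 0.121 FPKM in bFGF/EGF and 1.54 FPKM in BMP4, and the 6 vascular and mural markers to at most 0.238 and 1.98 FPKM. Of these, 4 microglial and 2 vascular markers had at most 3 fragments in each of the 6 libraries. Tmem119, the 1 microglial marker tested, rose by 3.85 on the log2 scale, from 0 to 1.20–1.46 FPKM. Of 3 vascular and mural markers tested, Rgs5 (2.84) and Pdgfrb (2.07) rose, to at most 1.22 and 0.496 FPKM. In bulk RNA, a change in the number of cells of a type and a change in the RNA of each cell cannot be told apart.

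Of the tested genes 36.6% differed between the groups, and more of them were higher than lower after BMP4. limma was run on log2(FPKM + 0.1), a scale that understates the change of low genes. A gene was called if its fold change reached 2 and its Benjamini-Hochberg adjusted p was no higher than 0.05. Of the 20207 genes, 4297 (21.3%) were higher in BMP4-treated NSCs and 3103 (15.4%) were lower. These shares are the background for the list counts below. With no fold threshold the numbers were 5991 and 5105. The median log2 fold change of all tested genes was 0.10, and that of the called genes was 1.86 for the higher and -1.73 for the lower ones. Values of the 3 BMP4 and 3 bFGF/EGF libraries did not overlap for 7235 of the 7400 called genes. Over all 20207 tested genes, BMP4 lay above bFGF/EGF without overlap for 6591 and below it for 5615. Called genes were chosen for a large difference relative to the spread, so their lack of overlap is no separate support.

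The genes on the 2 sides started from different levels. Those that rose had a median of 0.451 FPKM in bFGF/EGF and 2.86 FPKM in BMP4, while those that fell went from a median of 7.11 to 1.67 FPKM. Large changes were also more frequent upwards: 352 genes rose and 146 fell by at least 4 on the log2 scale. A gene with 3 fragments or fewer in each library was taken as not detected. By this rule 1421 genes were detected in BMP4 only, of which 899 were called, and 789 in bFGF/EGF only, of which 325 were called. Fragment numbers were worked out from the FPKM and can be too small, so some of these genes may have been detected in both groups. Long non-coding RNAs were called higher in 29.7% and lower in 7.04% of 2288 tested, against 22.2% and 17.0% of 13787 protein-coding genes. They were not compared at equal levels, and the calls varied with the mean level. Of all genes at 0.1 to 1 FPKM, 22.8% were higher and 10.6% lower, and at 1 to 10 FPKM 22.0% and 18.0%. The shares were 17.3% and 17.1% at 10 to 100 FPKM, and 27.6% and 29.9% above 100 FPKM. The 100 most abundant genes took 25% of the summed TPM (FPKM rescaled to the same sum in every library) in each bFGF/EGF library and 29.9–32.8% in the BMP4 libraries.

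**Figure D1:**
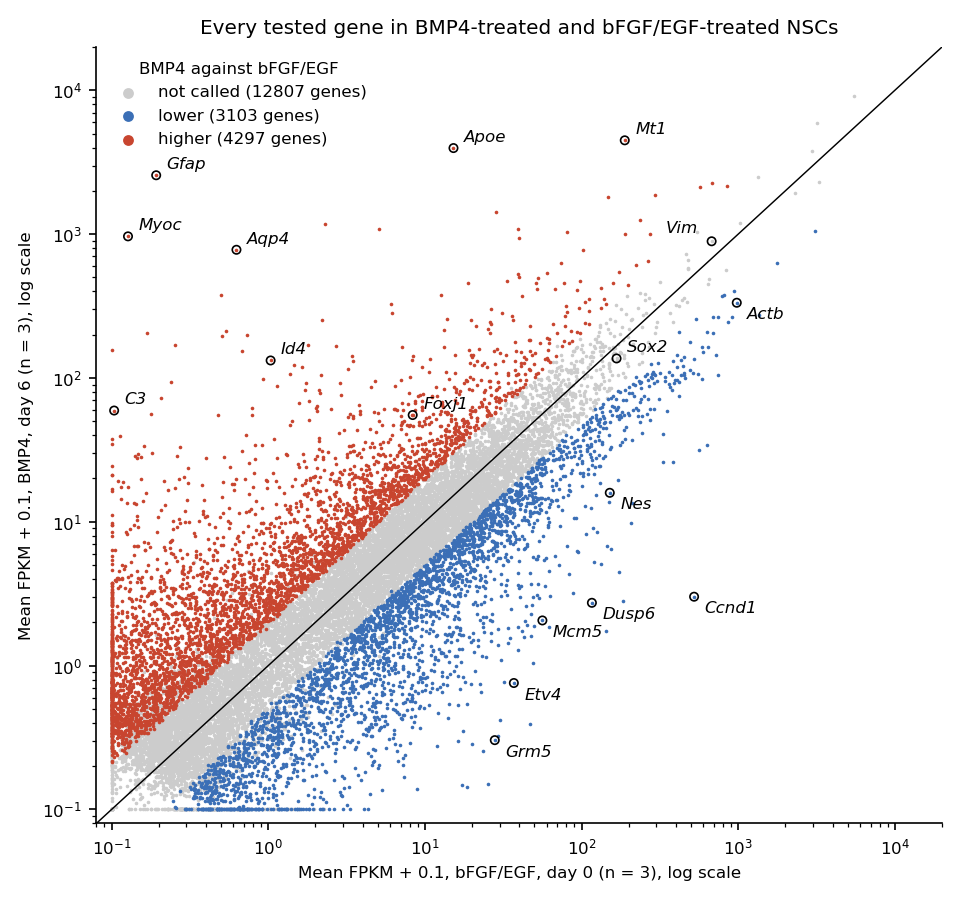
Mean FPKM + 0.1 of each tested gene in bFGF/EGF at day 0 (x axis) and in BMP4 at day 6 (y axis), both on log axes and over 3 libraries, with the line of equal levels. One point is one gene, red for the 4297 called higher, blue for the 3103 called lower and grey for the rest. Gfap, Myoc and Aqp4 lie far above the line, Ccnd1, Etv4 and Grm5 far below it, and Sox2 and Vim near it.

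The target genes of BMP/SMAD signalling moved in one direction. All 15 tested members of this list rose, with a median log2 fold change of 3.71 against 0.10 for all genes. Their summed level rose from 347–454 to 4158–5472 TPM, 12.1-fold, and the groups did not overlap; the exact two-sided permutation p was 0.1, the smallest that 3 libraries against 3 allow.

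ID proteins are helix-loop-helix factors that lack a DNA-binding domain and block proneural factors. Id1 stood at 17.1, 28.3 and 17.5 FPKM in the bFGF/EGF libraries and at 198, 309 and 177 FPKM in the BMP4 libraries, a log2 fold change of 3.44 ± 0.28 (SE; adjusted p = 5.0e-06). Id4 was nearly silent before, at 0.978, 0.756 and 1.07 FPKM, and reached 141, 141 and 115 FPKM, a change of 7.0 ± 0.15 (adjusted p = 2.4e-09). Id2 and Id3 rose by 2.86 and 3.17. Each BMP4 library lay several times above each bFGF/EGF library for these genes, and Id4, the lowest of them in bFGF/EGF, had the largest change, which is why its start region is shown. It is the RefSeq window on GRCm38.p6, chr13:48260866-48261165, plus strand, from 250 bases before to 50 after the start, with the SMAD-type GC motif GGCGCC (its own reverse complement) in capitals:
Id4: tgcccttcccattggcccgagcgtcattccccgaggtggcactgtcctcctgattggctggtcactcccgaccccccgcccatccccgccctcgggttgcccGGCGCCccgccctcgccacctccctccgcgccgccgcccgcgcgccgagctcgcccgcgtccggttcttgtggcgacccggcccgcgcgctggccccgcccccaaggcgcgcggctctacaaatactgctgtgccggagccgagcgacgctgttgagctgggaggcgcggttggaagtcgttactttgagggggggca
The motif was found in 4 of the 10 BMP/SMAD targets with a window (40.0%), in 24.8% of 10711 protein-coding genes tested and in 11.9% of all 32851 windows, so that it was common among expressed genes at large.

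Inhibitors of the pathway were among the members with the largest changes. Smad6, an inhibitory SMAD that blocks the type I receptor, had no fragment in any bFGF/EGF library and stood at 39.4, 42.4 and 30.4 FPKM in BMP4, which is at least 632-fold higher. Nog, whose product noggin binds BMP4 outside the cell, went from 0.347, 0.522 and 0.434 FPKM to 191, 248 and 202 FPKM (log2 fold change 8.65). Smad7, the other inhibitory SMAD, rose by 5.10, and Smad9, a signal-transducing SMAD, by 4.0. The antagonist Grem1 rose by 3.71 and the decoy receptor Bambi by 1.43. Receptors and SMADs apart from these targets changed less: of 11 tested, Bmpr1a and Bmpr1b rose, Acvr2b fell by 1.80 on the log2 scale and 8 were not called. Bmpr1a, a type I receptor of BMP4, stood at 26.1, 17.3 and 26.3 FPKM in bFGF/EGF and at 122, 127 and 123 FPKM in BMP4 (log2 fold change 2.44), without overlap. Bmpr1b changed by 1.36, and the type II receptor Bmpr2 was not called at 0.96.

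**Figure D2:**
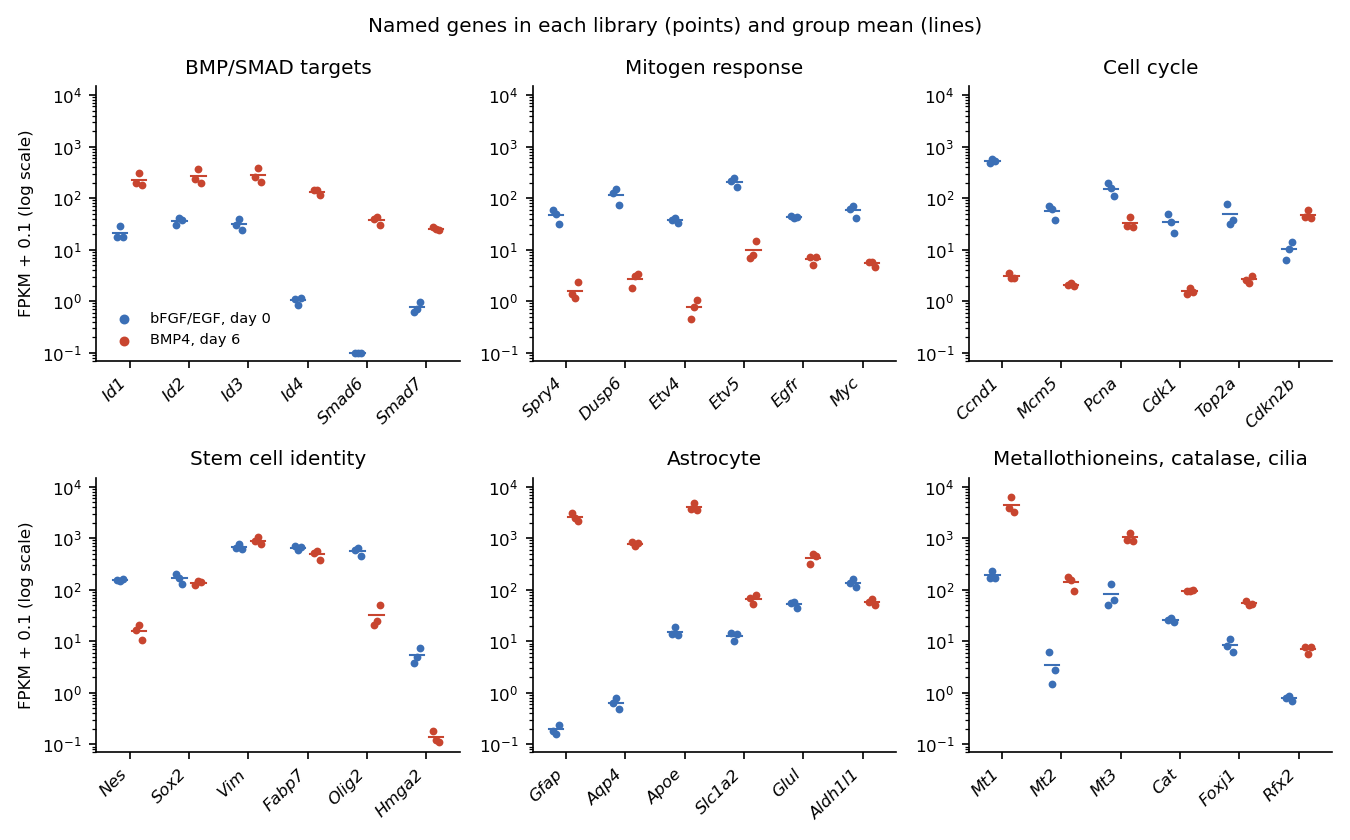
FPKM + 0.1 of 36 named genes on a log axis, one point per library (3 of bFGF/EGF in blue, 3 of BMP4 in red) and a line at the group mean, in panels for BMP/SMAD targets, mitogen response, cell cycle, stem cell identity, astrocyte genes, and metallothioneins with catalase and cilia genes. The ID genes and Smad6 sit higher in BMP4 than in bFGF/EGF, the mitogen response genes lower, and Sox2 overlaps.

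Targets of FGF and ERK signalling fell. Of 25 tested, 16 were lower and 3 higher (median log2 fold change -2.08), and the summed level went from 2561–3338 to 460–516 TPM, 6.27-fold lower (exact permutation p = 0.1). Dusp6, a phosphatase that inactivates ERK, stood at 127, 148 and 73.5 FPKM in bFGF/EGF and at 1.67, 3.00 and 3.23 FPKM in BMP4 (log2 fold change -5.40 ± 0.42). The ETS factor Etv4 stood at 37.0, 41.2 and 32.4 FPKM and then at 0.357, 0.656 and 0.957 FPKM (-5.69 ± 0.25, adjusted p = 1.2e-07). For both genes the highest BMP4 library lay far below the lowest bFGF/EGF library. Etv5 changed by -4.46, and the feedback inhibitors Spry1, Spry2 and Spry4 by -4.05, -1.98 and -4.91. The immediate early factor Egr1 went from 27.2–54.2 to 1.25–1.99 FPKM. The 3 members that rose were Fos, Junb and Fosl2, subunits of the AP-1 factor, at log2 fold changes of 1.21, 1.72 and 1.76.

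Receptors of the 2 withdrawn mitogens moved in different directions. Egfr, the EGF receptor, fell from 44.9, 41.2 and 42.1 FPKM to 6.96, 4.91 and 7.14 FPKM (log2 fold change -2.75 ± 0.16). Fgfr2 rose from 1.5, 1.73 and 0.734 FPKM to 17.9, 17.3 and 17.6 FPKM (3.72 ± 0.25). Neither gene overlapped between the groups. Fgfr1 (0.46) and Fgfr3 (0.67) passed the adjusted p but not the fold threshold, at 31.5–33.0 and 28.7–34.3 FPKM in BMP4. The EGF receptor relatives Erbb2 and Erbb3 rose by 1.11 and 2.34 from at most 1.29 and 0.0391 FPKM. Over all 10 tested receptors the summed level was 621–649 TPM in bFGF/EGF and 632–715 TPM in BMP4 and overlapped. With the mitochondrial genome left out of the scaling it was 670–678 and 706–793 TPM, without overlap (exact permutation p = 0.1).

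Genes of the cell cycle fell nearly as whole lists. Of 45 DNA replication genes 41 were lower and none higher by this rule (median log2 fold change -2.96), and at the adjusted p alone 44 were lower and 1 was higher. Of 71 mitosis and cytokinesis genes 70 were lower (median -3.49), of 33 nucleotide synthesis genes 25 (median -1.72), and of 17 G1/S cyclins, kinases and E2F genes 15 (median -2.48). The background was 15.4% lower over all genes.

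Ccnd1, cyclin D1, which drives cells from G1 into S phase, had the largest fall of the 20207 tested genes on log2(FPKM + 0.1). It stood at 473, 568 and 528 FPKM in bFGF/EGF and at 3.33, 2.71 and 2.69 FPKM in BMP4, a log2 fold change of -7.44 ± 0.22 (adjusted p = 1.4e-08). With limma-voom on fragment numbers Cpne7 fell further (-9.08 against -7.58 for Ccnd1). Nrgn and Itga4 reached -8.54 each in at least 1 alternative, whereas Ccnd1 fell no further than -7.58 in any. Ccnd1 lies at chr7:144483668-144493662 on GRCm39, minus strand. The other D cyclins did not share this: Ccnd2 stood at 152, 132 and 166 and then at 82.1, 60.3 and 112 FPKM (-0.86), and Ccnd3 changed by -0.61. Neither passed the fold threshold, and in BMP4-treated NSCs Ccnd2 had the highest FPKM of the 3 D cyclins.

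Replication factors gave the same direction. Mcm5, a subunit of the replicative helicase, went from 68.8, 61.9 and 37.8 to 1.91, 2.12 and 1.85 FPKM (-4.73 ± 0.30). Pcna, the sliding clamp, retained more, from 195, 154 and 110 to 28.5, 42.1 and 27.9 FPKM (-2.20 ± 0.25). The ribonucleotide reductase subunit Rrm2 changed by -4.35, Uhrf1, which maintains DNA methylation behind the fork, by -5.04, and E2f1 by -3.46. For the mitotic kinase Cdk1 the values were 49.7, 33.8 and 21.0 FPKM and then 1.25, 1.73 and 1.41 FPKM (-4.41 ± 0.29). Topoisomerase Top2a stood at 76.5, 30.7 and 38 FPKM and then at 2.50, 2.12 and 2.97 FPKM (-4.10 ± 0.35). The first bFGF/EGF library was the highest of its group for both, and over the whole mitosis list it held 6797 TPM against 3841 and 3673 TPM, with 456–501 TPM in BMP4. The summed level was 9.85-fold lower for mitosis and 5.57-fold lower for DNA replication. Pttg1, securin, was the 1 mitosis gene that rose, from 3.31–5.25 to 12.7–21.0 FPKM (1.97), and its annotated span overlaps Slu7 on the other strand, as that of Cdk1 overlaps Ank3.

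The start regions of 3 of these genes are shown because promoter motifs of the cell cycle are well described for them: the CHR (TTTGAA), the NF-Y motif CCAAT and an E2F form (TTTGGCGC). They are RefSeq windows of the same kind on GRCm38.p6, written along the gene's strand, for Cdk1 at chr10:69352863-69353162 (minus), Top2a at chr11:99024140-99024439 (minus) and Mcm5 at chr8:75109259-75109558 (plus). Capitals mark TTTGAA and CCAAT on either strand in Cdk1 and Top2a, and TTTGGCGC on either strand in Mcm5, where it reads GCGCCAAA:
Cdk1: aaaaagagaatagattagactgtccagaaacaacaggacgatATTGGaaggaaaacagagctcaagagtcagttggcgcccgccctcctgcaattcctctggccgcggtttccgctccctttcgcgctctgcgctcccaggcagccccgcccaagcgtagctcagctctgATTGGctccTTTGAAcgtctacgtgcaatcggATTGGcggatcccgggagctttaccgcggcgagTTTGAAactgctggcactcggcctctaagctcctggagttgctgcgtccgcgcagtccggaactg
Top2a: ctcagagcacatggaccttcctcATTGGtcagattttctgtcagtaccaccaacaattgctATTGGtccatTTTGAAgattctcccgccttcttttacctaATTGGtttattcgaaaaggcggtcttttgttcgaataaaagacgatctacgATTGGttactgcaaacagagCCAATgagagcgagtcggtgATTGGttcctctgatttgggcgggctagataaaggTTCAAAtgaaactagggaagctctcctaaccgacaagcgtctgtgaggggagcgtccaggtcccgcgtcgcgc
Mcm5: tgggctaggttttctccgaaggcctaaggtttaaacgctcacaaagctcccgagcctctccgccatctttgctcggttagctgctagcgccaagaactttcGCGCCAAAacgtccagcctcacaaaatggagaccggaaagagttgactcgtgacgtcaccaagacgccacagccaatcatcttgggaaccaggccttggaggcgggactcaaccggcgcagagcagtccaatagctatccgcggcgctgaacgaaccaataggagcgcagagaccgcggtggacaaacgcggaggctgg
TTTGAA was found in 41 of 59 mitosis genes with a window (69.5%), in 19.4% of DNA replication genes, in 14.1% of the protein-coding genes tested and in 17.9% of all windows. CCAAT was found in 71.2% of mitosis and 61.1% of replication genes, against 43.1% of the protein-coding genes tested and 37.4% of all windows. TTTGGCGC was held by 7 of 36 replication genes (19.4%), 1.11% of the protein-coding genes tested and 0.514% of all windows, and a second E2F form, TTTCCCGC, by 7 of 36 as well, 2.31% and 1.07%. These matches describe letters in the windows, and binding was not measured.

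The list that holds the CDK inhibitors was called about as often as genes at large. Beside CDK inhibitors and pocket proteins it includes the Btg and Tob genes, Ccng1, Ccng2, Gas1 and Gas2l3. Of its 18 genes 4 rose (22.2%, against 21.3% of all genes) and 3 fell (16.7%, against 15.4%). Cdkn1a, which encodes p21, stood at 131, 156 and 115 FPKM in bFGF/EGF and at 133, 165 and 133 FPKM in BMP4, and the groups overlapped (0.11, adjusted p = 0.59). Cdkn1b (0.33) and Cdkn1c (0.27) were not called either. Cdkn2b, which encodes p15 and blocks the kinases of the D cyclins, rose from 6.31, 10.0 and 13.6 FPKM to 42.2, 59.3 and 41.3 FPKM (2.29 ± 0.25, adjusted p = 3.4e-05). The others that rose were the antiproliferative Tob2 and the pocket proteins Rbl2 and Rb1, and those that fell were Cdkn2c, Rbl1 and Gas2l3.

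The machinery of protein synthesis fell alongside the cell cycle. Of 79 cytosolic ribosomal protein genes 77 were lower (median log2 fold change -1.75), and Rpl38 (-0.89) and Rpl22 (-0.83) passed the adjusted p but not the fold threshold. These genes took 8.25% ± 0.85 (SD, n = 3) of summed TPM in bFGF/EGF and 2.37% ± 0.39 in BMP4. They have many near-identical processed pseudogenes, and how fragments matching several places were counted is not given in the sources used here, so the level of a single ribosomal protein gene is uncertain.

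Ribosome biogenesis gave 66 lower and no higher genes of 96 (median -1.34), and 87 were lower at the adjusted p alone. Fbl, the methyltransferase of ribosomal RNA, went from 37.6, 45.7 and 35.6 to 6.76, 8.57 and 6.99 FPKM (-2.40), without overlap. Nop56, its partner in the same particle, changed by -2.38 and Polr1b, a subunit of RNA polymerase I, by -1.76. Nucleolin, Ncl, lay just inside the fold threshold at -1.0 and was not called. Myc, which drives many of these genes, fell from 62.0, 69.1 and 41.2 FPKM to 5.71, 5.66 and 4.51 FPKM (-3.39), whereas Mycn stood at 3.95–4.41 and 3.79–4.29 FPKM (-0.06). The E-box CACGTG, a motif that MYC and related factors bind, was found in 22.2% of ribosome biogenesis genes with a window, 34.1% of lysosome genes and 11.3% of the protein-coding genes tested.

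Related lists followed with smaller medians. No member was called higher, although Slc3a2 of the stress response (0.96) and the chaperone Hsph1 (0.67) passed the adjusted p alone. Lower were 17 of 22 aminoacyl-tRNA synthetase genes (median -1.26), 13 of 21 genes of the amino acid stress response (-1.16) and 12 of 20 chaperones (-1.13). The synthetase list holds the cytosolic enzymes with their scaffold proteins Aimp1 and Aimp2. Most listed chaperones are cytosolic, but Hspd1, Hspe1 and Hspa9 are mitochondrial. Asns, asparagine synthetase, went from 59.5, 71.9 and 70.8 to 4.82, 7.47 and 4.68 FPKM (-3.58), and Chac1, which degrades glutathione, changed by -3.80. Phgdh, the first enzyme of serine synthesis, was not called at -0.79. Only 2 of 31 proteasome subunits passed the fold threshold, Psma7 and Psmd3, while 25 were lower at the adjusted p alone (median -0.67).

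**Figure D3:**
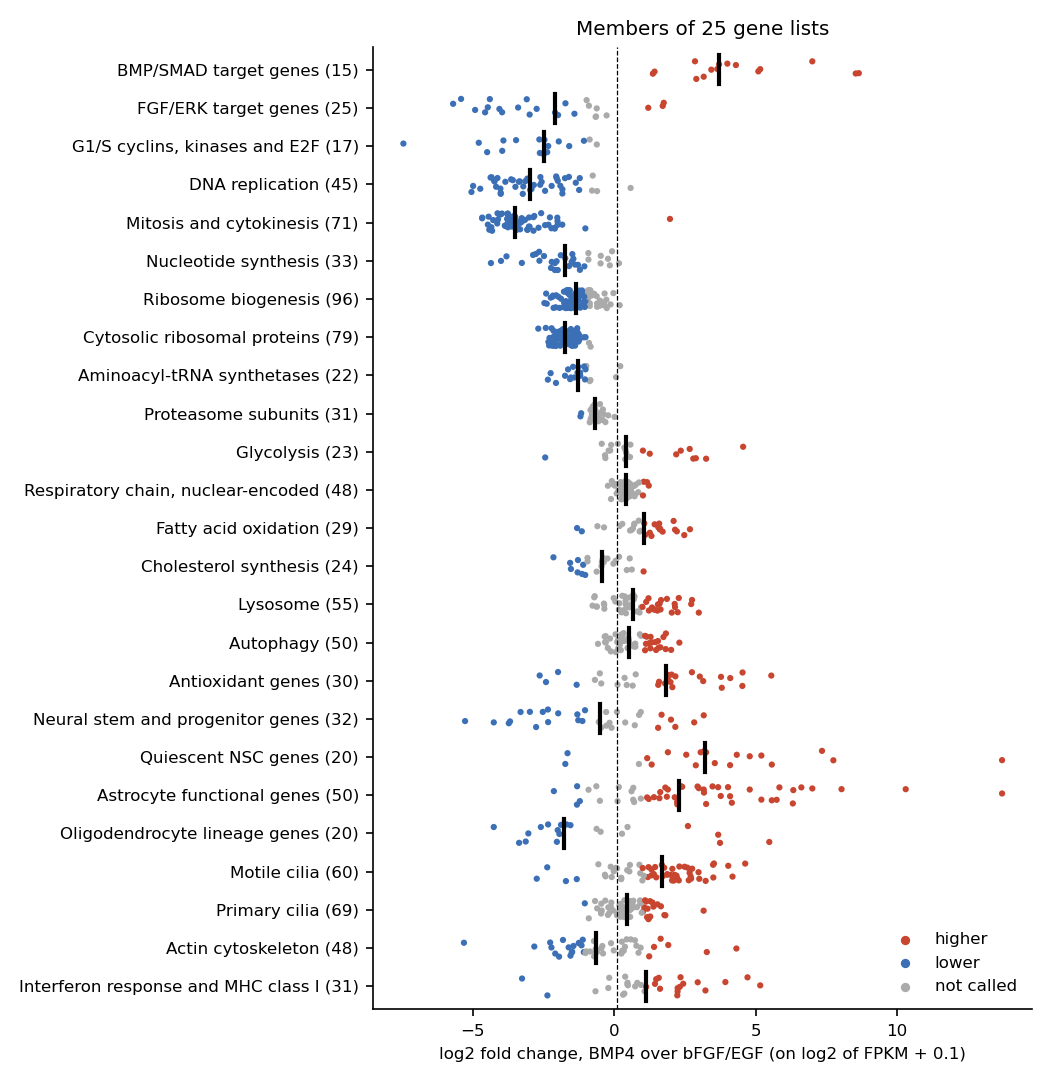
Log2 fold change of BMP4 over bFGF/EGF for the tested members of 25 gene lists (their number in brackets), one point per gene in red if called higher, blue if lower and grey if not called. Thick bars mark each list's median and the dashed line the all-gene median of 0.10. Cell cycle and ribosome lists lie almost wholly on the lower side, whereas BMP/SMAD targets, quiescent NSC and astrocyte genes lie mostly on the higher side.

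Energy and lipid metabolism divided by pathway. Fatty acid oxidation rose in 15 and fell in 2 of 29 genes (median 1.07), and its summed level was 2.12-fold higher. Cpt1a, the carnitine transferase that admits fatty acids into mitochondria, rose by 1.72, and the coactivator Ppargc1a went from 3.87–6.37 to 25.6–34.2 FPKM (2.48). The 2 that fell were the synthetase Acsl5 (-1.31) and the thioesterase Acot1 (-1.14). In glycolysis 9 of 23 genes rose and 1 fell (median 0.43). The member that fell was Hk2, hexokinase 2, from 2.70–3.38 to 0.335–0.609 FPKM (-2.43). Aldoc, an aldolase of astrocytes, rose by 3.25 and Ldhb by 2.89, from 90.0–117 to 647–990 FPKM, while Ldha was not called (-0.44). Slc16a1, the monocarboxylate carrier of lactate, stood at 19.6, 19.2 and 17.6 FPKM and then at 457, 560 and 345 FPKM (4.56 ± 0.18, adjusted p = 5.6e-08).

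Lipid synthesis moved both ways. Of 24 cholesterol synthesis genes 8 were lower, among them Mvk (-2.14) and Lss (-1.55), and 1, Hsd17b7, was higher (1.04), while Hmgcs1 (0.63) was not called. The desaturase Scd1 rose by 1.31, and Acly and Elovl6 changed by -1.35 and -1.68. Of 48 nuclear genes of the respiratory chain 4 were called higher (8.33%, against 21.3% of all genes) and none lower, with a median of 0.42. At the adjusted p alone 18 were higher, against 29.6% of all genes. The 13 protein genes of the mitochondrial genome took 5.58% ± 1.43 of summed TPM in bFGF/EGF and 9.63% ± 0.30 in BMP4. Of them 6 were called, although the most abundant, mt-Co1, was not (0.75, adjusted p = 0.11). Without the mitochondrial genome in the sum, the fold of the BMP/SMAD target total moved from 12.1 to 12.6 and that of the ribosomal protein total from 3.48 to 3.32.

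Antioxidant and degradative genes rose. Of 30 antioxidant genes 18 rose and 4 fell (median 1.85), and the summed level was 4.84-fold higher. This total is weighted towards abundant genes such as Mt1 and does not give the change of a typical member. Mt1, a metallothionein that binds zinc and copper, stood at 166, 232 and 167 FPKM in bFGF/EGF and at 3902, 6308 and 3259 FPKM in BMP4 (4.53 ± 0.29). Mt2 rose by 5.55 and Mt3 by 3.78. The peroxiredoxin Prdx6 went from 38.4, 47.5 and 33.6 to 923, 1150.5 and 730.3 FPKM (4.54 ± 0.20). The second BMP4 library was the highest for both Mt1 and Prdx6, and it also had the highest sum of FPKM of all libraries. Catalase, Cat, rose from 23.7–27.5 to 93.5–99.1 FPKM (1.91). The 4 that fell were glutathione reductase Gsr (-2.63), thioredoxin Txn1 (-2.40), Gpx3 (-1.98) and Gpx7 (-1.32).

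No lysosome, autophagy or peroxisome gene was called lower. Higher were 21 of 55 lysosome genes (median 0.68), 18 of 50 autophagy genes (0.52) and 20 of 42 peroxisome genes (0.97). The lysosomal proteases Ctsb and Ctsd rose by 2.99 and 2.25, with Ctsd at 87.8, 118 and 88.7 and then at 412, 599 and 399.8 FPKM. Phyh, a peroxisomal hydroxylase of branched fatty acids, rose by 4.08, and Wipi1, which acts at the forming autophagosome, by 2.31. Foxo1 and Foxo3, transcription factors that growth factor signalling keeps out of the nucleus, rose by 1.64 and 1.48.

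**Figure D4:**
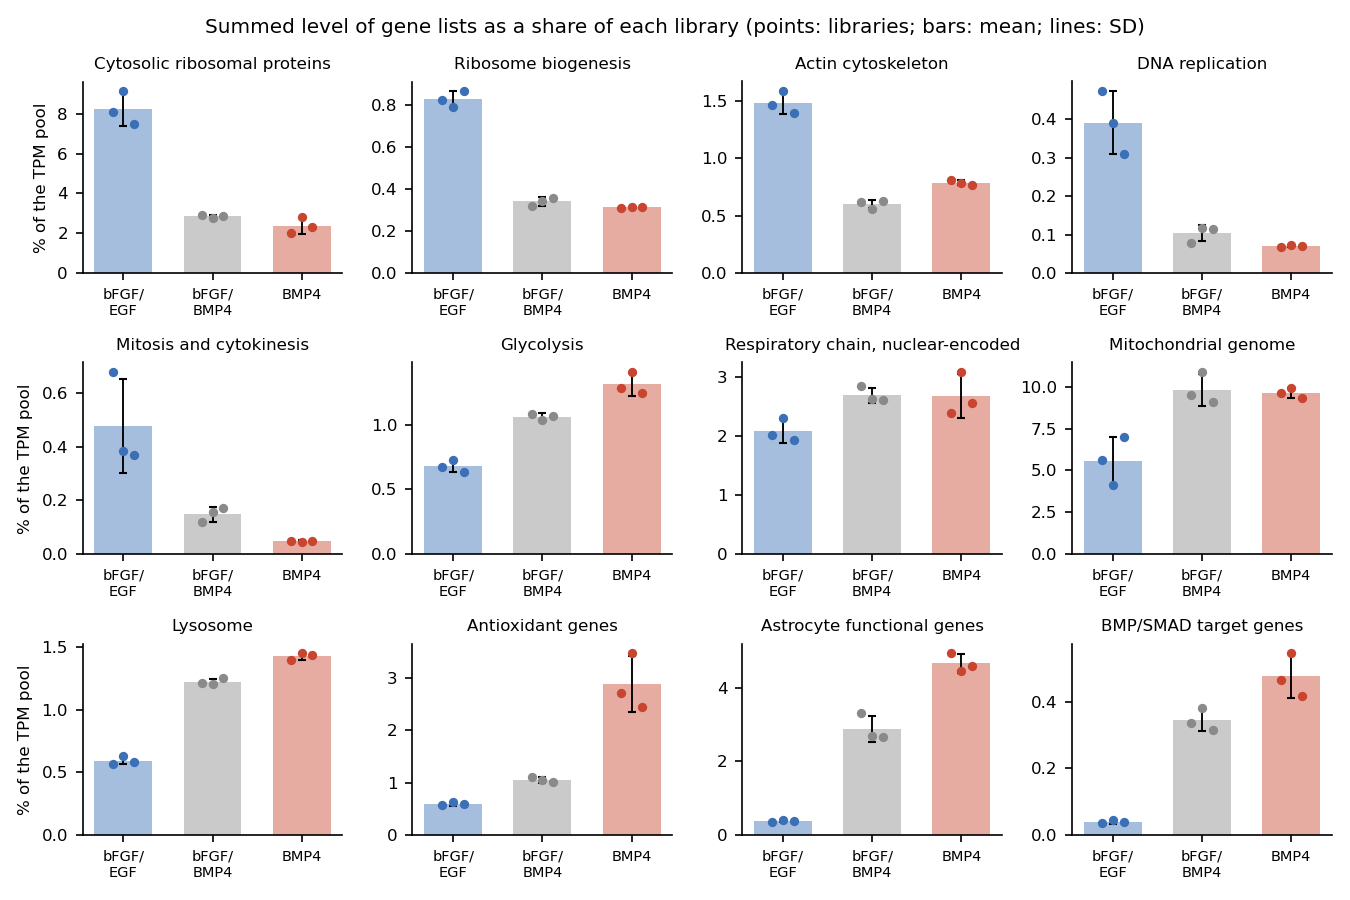
Share of summed TPM (percent) held by 12 gene lists in bFGF/EGF, bFGF/BMP4 and BMP4, with points for libraries, bars for means and lines for the SD (n = 3). Every BMP4 library held less of the mitosis, DNA replication and ribosomal protein lists and more of the astrocyte, lysosome and antioxidant lists than any bFGF/EGF library.

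Markers of neural stem cells did not move together. Of 32 stem and progenitor genes 6 rose and 15 fell (median -0.50). Nes, which encodes the intermediate filament nestin, stood at 152, 145 and 157 FPKM in bFGF/EGF and at 16.0, 20.7 and 10.7 FPKM in BMP4 (-3.30 ± 0.21, adjusted p = 1.2e-06), without overlap. Sox2, a core transcription factor of NSCs, stood at 202, 170 and 130 and at 121, 146 and 142 FPKM and overlapped (-0.27, adjusted p = 0.20). Vim (0.39) and Fabp7 (-0.45) were not called. Olig2, a factor of transit-amplifying and oligodendrocyte progenitors, fell from 597, 654 and 445 FPKM to 20.3, 24.4 and 50.3 FPKM (-4.25 ± 0.33). Hmga2, a chromatin protein of young stem cells, went from 3.60–7.2 to 0.00895–0.0818 FPKM (-5.26), and Pax6 and Dlx2 rose by 2.16 and 3.17.

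Genes linked to quiescent NSCs rose in 17 and fell in 2 of 20 cases (median 3.21), and their summed level was 12.5-fold higher. Part of this list, such as Gfap and Clu, is also expressed by astrocytes. Gfap is a member of the astrocyte and reactive astrocyte lists below as well. The counts and totals of these lists are therefore not separate results. Hopx, a homeodomain factor of quiescent stem cells, went from 4.27–4.85 to 28.5–47.5 FPKM (2.89), and the adhesion molecule Vcam1 from 0.796–1.13 to 7.78–9.25 FPKM (3.06). Fbxo2, a ubiquitin ligase subunit, rose by 7.75. The 2 that fell were Thbs4 (-1.72, from at most 0.590 FPKM) and Mfge8 (-1.64).

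Astrocyte genes rose in most cases. Of 50 tested 36 rose and 4 fell (median 2.30). They took 0.377% ± 0.023 of summed TPM in bFGF/EGF and 4.67% ± 0.26 in BMP4, 12.4-fold more (exact permutation p = 0.1). Gfap, the intermediate filament of astrocytes, stood at 0.0837, 0.0600 and 0.134 FPKM in bFGF/EGF and at 3038, 2478 and 2181 FPKM in BMP4. Its log2 fold change of 13.71 ± 0.17 (adjusted p = 5.3e-11) was the largest of any gene on log2(FPKM + 0.1), whereas with limma-voom that of Myoc (14.90) exceeded it (14.61). Gfap lies at chr11:102778159-102791738 on GRCm39, minus strand.

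Water channel Aqp4 rose from 0.381–0.680 to 700–830 FPKM (10.30), and the lipid carrier Apoe from 13.5, 19 and 12.8 to 3744, 4709 and 3444 FPKM (8.04 ± 0.23). The gap junction protein Gja1 rose by 5.20, the calcium-binding S100b by 5.84, glutamine synthetase Glul by 2.99 and clusterin, Clu, by 5.57. Not all defining genes of astrocytes followed. Aldh1l1, a folate enzyme used as an astrocyte marker, stood at 132, 162 and 112 FPKM and then at 58.3, 64.7 and 51.3 FPKM, lower without overlap (-1.21 ± 0.15, adjusted p = 6.7e-05). Of the 2 glial glutamate transporters, Slc1a2 rose by 2.36 and Slc1a3 was not called (0.62). Chrdl1 (-2.13), Thbs2 (-1.31) and the amino acid carrier Slc7a10 (-1.30) also fell.

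Of 34 genes described in reactive astrocytes 20 rose and 5 fell (median 1.76). Complement factor C3, a component of innate immunity, was at or near 0 in bFGF/EGF, with 0.0114, 0 and 0 FPKM, and stood at 109, 36.3 and 32.5 FPKM in BMP4. The first BMP4 library held more C3 than the others. Complement factor C4b and the complement inhibitor Cd59a had at most 3 fragments in each bFGF/EGF library and stood at 14.7–18.9 and 51.9–59.7 FPKM in BMP4. The protease inhibitor Serpina3n (5.55) and the small heat shock protein Hspb1 (6.61) rose as well. The 5 that fell were S100a10 (-2.31), Fkbp5 (-2.29), B3gnt5, Amigo2 and Timp1 (-1.40). Over 9 complement genes, 6 were higher and none lower (median 3.39).

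Neuronal and oligodendrocyte genes did not follow the astrocyte genes. Of 25 neuroblast and neuron genes 5 rose and 8 fell (median -0.66). Tubb3, a neuronal beta-tubulin, rose from 18.4, 24.9 and 17.6 to 154, 179 and 101 FPKM (2.80), but Syt1, a synaptic vesicle protein, and Gap43, of growth cones, changed by -3.15 and -3.04. Dcx, of migrating neuroblasts, was low throughout, at 0.110–0.233 FPKM in bFGF/EGF and 1.99, 0.342 and 0.384 FPKM in BMP4. Its call (1.44, adjusted p = 0.050) was lost in 10 of 16 alternatives, among them the fits without the first BMP4 library or without any 1 of the bFGF/EGF libraries.

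Of 20 oligodendrocyte lineage genes 12 fell and 4 rose (median -1.77). Nkx2-2 changed by -3.36 and Olig1 by -2.33, from 1103–1593 to 192–369 FPKM. Pdgfra, the receptor of oligodendrocyte progenitors, went from 0.716–0.852 to 0.0985–0.133 FPKM (-1.99), and Sox10 had fragments in bFGF/EGF libraries only. Among those that rose, Mal, of myelin membranes, had no fragment in bFGF/EGF and was at least 19.8-fold higher, Aspa rose by 3.68, and Bcan, which is also an astrocyte matrix gene, by 2.61.

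Genes of motile cilia rose in the main, while Mcidas and Gmnc, which direct multiciliated cell fate, were hardly detected. Of 88 listed motile cilia genes 60 passed the filter on low values. Among these 39 rose and 4 fell (median 1.71), and the summed level was 1.15-fold higher. The filter averages over all 9 libraries, so a gene high in BMP4 alone could pass through that group. Foxj1, the factor that directs motile ciliogenesis, stood at 7.87, 10.8 and 6.13 FPKM in bFGF/EGF and at 61.2, 51.4 and 52.8 FPKM in BMP4 (2.76 ± 0.18). Rfx2, which acts with it, rose by 3.16, while Rfx3 lay just inside the threshold (0.98). The outer arm dynein Dnah9 rose by 4.63 from 0.0198–0.0461 FPKM, and Nme5, of the radial spokes, by 4.18. Mcidas had 0, 1 and 1 fragments in bFGF/EGF and none in BMP4, and Gmnc had none in bFGF/EGF and 3, 2 and 1 in BMP4. The 4 that fell were Ank3, Tfdp1, Myb and Dnaaf2.

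Ependymal genes gave 11 higher and 2 lower of 15 (median 2.10), but their summed level overlapped, at 332–421.5 and 350–464 TPM. Cd24a, one of the 2 that fell, changed by -1.37. Of the 5 defining ependymal markers Tmem212, Ak7 and Mcidas lay under the filter on low values. Of 69 primary cilia genes 17 were higher (24.6%, near the 21.3% of all genes) and 1 was lower (median 0.45). Drc1, which encodes a subunit of the axonemal dynein regulatory complex, was chosen for display after its values were seen. It stood at 0.0877, 0.236 and 0.148 FPKM and then at 2.69, 2.16 and 1.97 FPKM (3.24). Its RefSeq window on GRCm38.p6 is chr5:30281143-30281442, plus strand, and capitals mark the X-box core GTTGCC, which RFX factors bind, here on the other strand:
Drc1: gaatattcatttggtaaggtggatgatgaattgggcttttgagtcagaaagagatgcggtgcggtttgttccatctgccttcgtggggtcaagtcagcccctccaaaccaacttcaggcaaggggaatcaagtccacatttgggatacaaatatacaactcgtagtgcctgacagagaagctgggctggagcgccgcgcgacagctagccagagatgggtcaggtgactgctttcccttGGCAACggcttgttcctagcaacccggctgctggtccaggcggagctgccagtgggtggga
The core was found in 20 of 43 motile cilia genes with a window (46.5%), in 40.0% of primary cilia genes, in 15% of the protein-coding genes tested and in 12.5% of all windows.

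Cytoskeleton and matrix genes moved both ways. Of 48 actin cytoskeleton genes 17 fell and 6 rose (median -0.63). Actb went from 969, 1156 and 813 to 340, 336 and 324 FPKM (-1.54), and the actin-bundling Tagln2 from 172, 196 and 151 to 3.61, 5.81 and 3.67 FPKM (-5.30). Ccn1 and Ccn2, secreted proteins induced by YAP and serum response factor, rose by 3.28 and 4.32. In the basement membrane list 16 rose and 12 fell of 41 (median 0.09). Collagens and fibulins divided within it: Fbln2 (-6.16), Col18a1 (-5.11) and Col4a1 (-2.05) fell, and the laminins Lamb2 (4.2) and Lama2 (3.07) and the collagen Col23a1 (6.35) rose.

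In the matrix of neural tissue 9 of 23 genes rose (39.1%, against 21.3% of all genes) and 6 fell (26.1%, against 15.4%). Tnc, tenascin-C of the stem cell niche, fell from 314, 324 and 354 to 25.7, 23.2 and 28.8 FPKM (-3.67 ± 0.13), whereas its relative Tnr (4.18) and Reln (4.86) rose. Ncan, neurocan, stood at 126–144 and 239–441 FPKM (1.14). Of 26 integrins and cadherins 9 rose (34.6%) and 5 fell (19.2%). The integrin Itga4 had one of the largest falls, from 12.3–19.5 to 0.0309–0.0661 FPKM (-6.83), while Itga6, a laminin receptor of NSCs, was not called (-0.49).

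Synapse genes rose in 17 and fell in 14 of 56 cases, with a summed level 3.42-fold higher. C1ql1, a secreted synaptic organiser, stood at 0.599, 0.944 and 0.346 FPKM and then at 200.4, 212 and 180.4 FPKM (8.16 ± 0.40, adjusted p = 2.1e-07). Sparcl1, which astrocytes release, rose by 4.79. The glutamate receptors Grm5 and Grm3 fell, Grm5 from 28.3, 21.1 and 34.1 to 0.252, 0.133 and 0.225 FPKM (-6.52) and Grm3 by 5.44 on the log2 scale. Of 24 potassium channel genes 11 rose (45.8%) and 7 fell (29.2%). Kcnj10, the inward rectifier of astrocytes, rose by 4.03, and Kcnd2 and its partner Kcnip1 changed by -3.09 and -4.66. Of 31 interferon response and MHC class I genes 16 rose and 2 fell (median 1.13). Ifit3 rose by 4.71 from at most 0.303 FPKM, and the 2 that fell were the guanylate-binding proteins Gbp3 and Gbp7.

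Other signalling pathways had genes called in both directions, and the background over all genes was 21.3% higher and 15.4% lower. In the Notch list 5 of 18 genes rose (27.8%) and 7 fell (38.9%). The ligands Jag1 (17.8, 13.3 and 14.7 to 0.497, 0.583 and 1.37 FPKM) and Dll1 fell by 4.18 and 2.97 on the log2 scale, the receptor Notch1 was not called (0.04), and among the effectors Hes1 fell (-1.97) while Hey1 (3.65) and Hes5 (2.83) rose. Wnt genes rose in 14 and fell in 5 of 28 (median 0.91), with the antagonist Dkk3 at 3.39 and the ligand Wnt7b at -1.80. For Hedgehog, the co-receptor Boc rose by 3.20 and the ligand Shh changed by -2.61. Of the 11 genes in this list 3 were higher (27.3%) and 2 lower (18.2%), near the shares of all genes. Of 9 retinoic acid targets 3 rose (33.3%) and 1 fell (11.1%). Dhrs3, a retinal reductase, went from at most 0.0432 FPKM to 2.92–6.19 FPKM. The labels word the vitamin A content of the media differently, and its part cannot be told apart from that of BMP4.

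In the IGF system the summed level was 4.92-fold lower while 4 of 12 genes rose (33.3%) and 5 fell (41.7%). Igfbp2 went from 686, 905 and 636 to 49.4, 137 and 126 FPKM (-2.95), and Igfbp4 from 16.0, 18.9 and 15.2 to 0.600, 0.643 and 0.535 FPKM (-4.60 ± 0.13). The ligand Igf1 rose from 0.0356–0.0914 to 2.76–3.20 FPKM (4.32), and Igfbp5 rose by 3.53. Among sex-linked markers Ddx3y on chromosome Y was the 1 called gene (1.02, lost in 8 of 16 alternatives), and Xist overlapped at 28.0–49.6 and 16.9–43.6 FPKM.

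Beside Gfap and Aqp4, the protein-coding genes with the largest increases at a mean of at least 5 FPKM were Myoc, Fmod, Cidea, Ccdc3, Padi2 and Hspb8. Myoc, myocilin, at chr1:162466718-162477265 on GRCm39, plus strand, stood at 0, 0 and 0.0819 FPKM in bFGF/EGF and at 1504, 729 and 662 FPKM in BMP4. The matrix proteoglycan Fmod had no fragment in bFGF/EGF and stood at 153–158 FPKM in BMP4. Hspb8, a small heat shock protein, rose from 1.99, 2.11 and 2.50 to 1130.0, 1303 and 1115 FPKM (9.01). These genes did not overlap between the groups, and Myoc varied most within BMP4, with the first library highest. On the same scale the largest decreases after Ccnd1 were Cpne7 (-7.40), the calmodulin-binding Nrgn (14.8–22.8 to 0–0.0850 FPKM), Rab26 (-6.91), Itga4, Grm5, the angiopoietin Angpt2 (-6.52) and the fibrillin Fbn2 (-6.48).

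The most abundant protein-coding genes differed in part. In bFGF/EGF-treated NSCs the 5 with the highest FPKM were mt-Co1, Ckb, mt-Cytb, Eef1a1 and mt-Nd1, and in BMP4-treated NSCs they were mt-Co1, mt-Cytb, Mt1, Apoe and mt-Nd1. Eef1a1, the elongation factor, fell by 1.56 on the log2 scale, and Ckb, brain creatine kinase, was not called (-0.49). Among long non-coding RNAs Miat rose from 0.139–0.207 to 27.3–31.3 FPKM (6.78), and Gm50048 from at most 0.0234 FPKM to 13.4–19.4 FPKM.

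The bFGF/BMP4-treated NSCs, also collected at day 6, show how the values lay when bFGF was present beside BMP4. This comparison uses the same BMP4 libraries, so its calls and those above are not independent, and the counts are a description. Between BMP4 and bFGF/BMP4, 8.41% of all tested genes were higher and 5.14% lower in BMP4. Of the 4297 genes higher in BMP4 than in bFGF/EGF, 1215 (28.3%) were also higher than in bFGF/BMP4, 128 (2.98%) were lower and 2954 were not called. Of the 3103 lower genes, 555 (17.9%) were also lower than in bFGF/BMP4, 90 (2.90%) were higher and 2458 were not called. In all 1988 genes differed from both groups in the same or the opposite direction. The mean of bFGF/BMP4 lay between the other means for 3008 of the higher and 2234 of the lower genes.

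The lists differed in how bFGF/BMP4 lay. Ribosomal protein and ribosome biogenesis genes had no member called between BMP4 and bFGF/BMP4, so Fbl, for example, was at 6.24–8.90 FPKM there and at 6.76–8.57 FPKM in BMP4. Mitosis genes were at an intermediate level, with 61 of 71 lower in BMP4 than in bFGF/BMP4 (median -1.72), and Cdk1 stood at 5.63, 8.34 and 8.68 FPKM. Of the BMP/SMAD targets 3 of 15, Id3, Id4 and Grem1, were higher in BMP4 than in bFGF/BMP4.

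Of the 25 FGF/ERK targets 11 were lower and 5 higher in BMP4 than in bFGF/BMP4 (median -0.41). The 5 higher were Fos, Junb, Fosl2, Dusp5 and Ier3. Among the lower ones, Dusp6 stood at 39.2, 95.5 and 120 FPKM and Etv4 at 36.0, 35.2 and 37.0 FPKM in bFGF/BMP4, overlapping bFGF/EGF and far above BMP4 (-4.86 and -5.66 for BMP4 against bFGF/BMP4). Egr1 and Myc did not share this, at 1.10–3.74 and 3.64–8.66 FPKM in bFGF/BMP4 and -0.41 and -0.06 for the same comparison. Jag1 and Igfbp4 were also higher with bFGF, at -5.24 and -5.91.

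The astrocyte list divided between these groups: 18 of its 50 genes were higher and 13 lower in BMP4 than in bFGF/BMP4 (median -0.07), whereas 24 of 34 reactive astrocyte genes were higher and 2 lower (median 2.46). Gfap stood at 16.8, 19.9 and 21.5 FPKM in bFGF/BMP4, 7.03 on the log2 scale below BMP4, and C3 was at most 0.0127 FPKM there. Myoc, C1ql1 and the prodynorphin gene Pdyn were the others with the largest increases in BMP4 over both groups. By contrast Slc1a2 (-1.43), Htra1 (-2.63) and Ncan (-3.55) were lower in BMP4 than in bFGF/BMP4. Nes was lowest with both factors, at 2.96, 3.76 and 3.94 FPKM, so BMP4 lay between the other groups and above bFGF/BMP4 (2.08). Foxj1 stood at 9.44–10.4 FPKM in bFGF/BMP4, within the range of bFGF/EGF, and 14 of 15 ependymal genes were higher in BMP4 than there. Ccnd2 was highest in bFGF/BMP4, at 422, 495 and 579 FPKM.

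**Figure D5:**
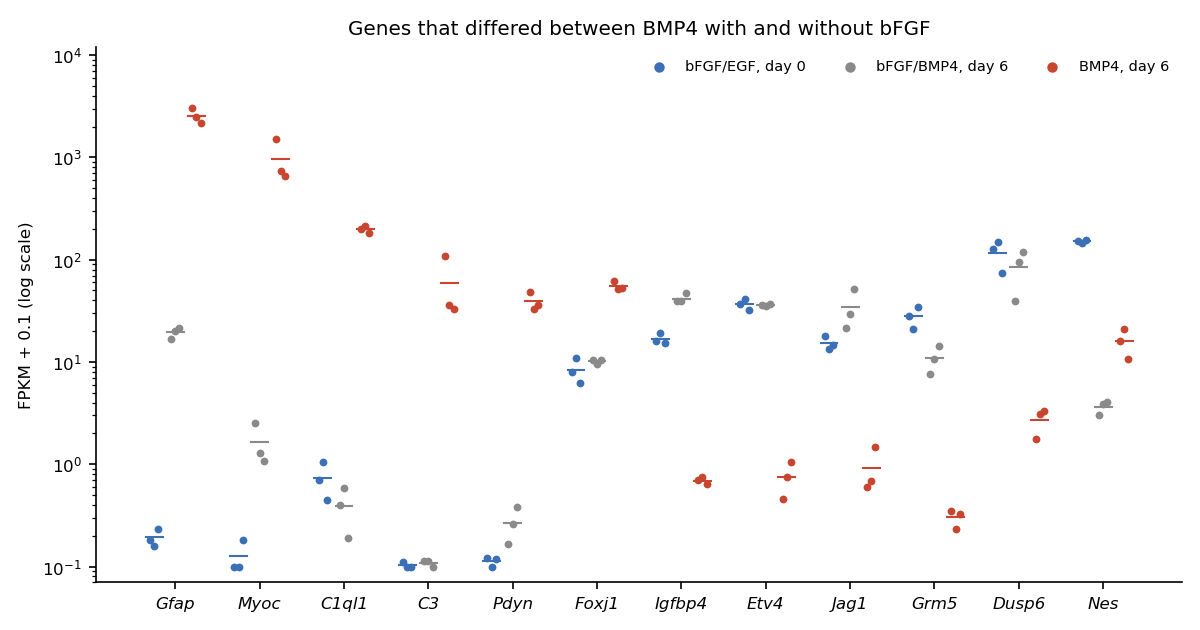
FPKM + 0.1 of 12 named genes on a log axis in bFGF/EGF (blue), bFGF/BMP4 (grey) and BMP4 (red), one point per library and a line at the group mean. Gfap, Myoc, C1ql1, C3, Pdyn and Foxj1 are higher in BMP4 than in both other groups, Igfbp4, Etv4, Jag1, Grm5 and Dusp6 are lower, and Nes lies between them.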

How the data were processed

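RNA was sequenced from 9 bulk libraries of mouse NSCs, with 3 libraries in each group: bFGF/EGF (day 0), and bFGF/BMP4 and BMP4 (both day 6). The authors deposited FPKM values for 55704 genes. Per the submitters' processing notes, the tools were fastp 0.19.7, HISAT2 2.0.5 and featureCounts 1.5.0-p3, and the build was mm39. Each deposited FPKM was a whole fragment number times a constant of the gene and one of the library. Whole numbers that fit were found for all 30860 genes above 0 (tolerance 0.02). They are the smallest that fit, so they are too small where a gene's true numbers have a common divisor. For 995 genes the annotated exon length showed such a divisor, and their numbers were multiplied by it. Other genes may still have numbers that are too small, and so be read as not detected. Divided by a library's fragments on genes, the library constants ranged from 0.918 to 1.071, so the libraries had been scaled against each other by a method that is not given in the sources used here. FPKM are relative values, and RNA per cell was not measured. Whether counting used strand is not given in the sources used here, so genes that overlap on opposite strands are uncertain.

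The 9 libraries were fitted together on log2(FPKM + 0.1) with limma 3.58.1 in R 4.3.3 (trended variance, Benjamini-Hochberg adjustment over all 20207 genes with a mean of at least 0.1 FPKM). limma was used in place of DESeq2, the authors' tool, because the values are not counts. A gene was called at an adjusted p of at most 0.05 and a fold of at least 2. With 15912635 to 17441380 fragments per library, a gene with 3 or fewer fragments in each library was read as not detected in that group, and a fold against a group with no fragment is a lower bound, computed against 3 fragments per library. This limit covers counting error only. Each list total was the sum of TPM and was compared by an exact two-sided permutation test of 3 libraries against 3. Tables and plots were made with Python 3.11.15, pandas 2.3.3, numpy 2.4.6 and matplotlib 3.10.9. On simulated counts of 18764 genes with 200 changed, 90.5% of these and 11 unchanged genes were called, and with none changed, 4 of 18742 genes were called. Only well-covered genes were changed there, by moderate folds, and all genes had the same relative spread. In the data 36.6% of genes were called and many were low, so these figures do not carry over to the comparison.

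The 51 gene lists and the named genes were chosen with earlier results of these data known. Named were a key list, the 8 protein-coding genes that rose most and the 8 that fell most at a mean of at least 5 FPKM and with no overlap, up to 2 called genes in each direction of each list and 3 non-coding genes in each direction at a mean of at least 1 FPKM, the 5 most abundant protein-coding genes of each group, and, among protein-coding genes called against both other groups at a mean of at least 5 FPKM, the 5 that rose most and the 5 that fell most against bFGF/BMP4. Part of these are given only by range or count, and some are not reported here. Other genes were named after their values were seen, to spell out a count or to describe a list. Of 1471 distinct listed genes tested, 1113 had a RefSeq promoter window, and motifs were searched on both strands. Gene positions come from GENCODE vM39. Alternatives tried were other filters (none, or a mean of at least 1 FPKM), a pseudocount of 1, median-ratio scaling, the TPM scale, limma-voom on fragment numbers, the replicate number as a block, the 2 groups fitted alone, other thresholds and each library left out in turn.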

Additional observations from a re-analysis of the deposited data

How the results depend on the processing

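The 4297 higher and 3103 lower genes became 2326 and 2038 with a pseudocount of 1, and 2649 and 2340 with a mean of at least 1 FPKM, which tests fewer genes. With no fold threshold they were 5991 and 5105. The 1988 genes that also differed from bFGF/BMP4 became 982 with a pseudocount of 1 and 3408 with no fold threshold. Under the other alternatives the counts stayed within 1.5 times, with 4064–4301 higher and 2929–3127 lower when 1 library was left out. Other scalings moved the median of all genes by at most 0.09 on the log2 scale. No called gene was called in the opposite direction in any of the 16 alternatives. Replicate numbers were shared between groups, but same-numbered libraries deviated together at correlations of only -0.05, 0.12 and 0.09 and not every library correlated best with its own number. With a replicate block, 4282 genes were higher and 3101 lower, and none of the 252 named genes tested changed its call.

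Of those 252 genes 221 kept their call throughout, and 31 changed it at least once, among them Erbb2, Tob2, Acot1, Hsd17b7, Thbs2, Pdgfra, Sox10, Ncan, Rara, Rfx3, Ncl, Dcx and Ddx3y. Counts of low lists shrank most: motile cilia genes called higher went from 39 to 16 with a pseudocount of 1 and to 15 at a mean of at least 1 FPKM, primary cilia genes from 17 to 9 with that pseudocount, and reactive astrocyte genes from 20 to 12 at that mean. The respiratory chain count of 4 was 2 on the TPM scale, with limma-voom and without the second BMP4 library. The proteasome count of 2 lower genes was 4 without that library.

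At this depth a gene at or under 3 fragments per library could not be told from one with none, and 3 libraries against 3 cannot give an exact permutation p under 0.1. Differences in time and medium between the groups were not tested, since no library separates them from BMP4.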
